A study of Mus musculus with 416 samples.

Results

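Striatum libraries that held much RNA of Slc17a7 were compared with striatum libraries that held little. Slc17a7 (ENSMUSG00000070570, chromosome 7) encodes the vesicular glutamate transporter of cortical excitatory neurons, and its level alone defined both groups. Within each breeding generation the libraries were ranked by Slc17a7 in CPM (the count divided by the column total, times 1000000), and the top 25% was set against the bottom 25%. This chose 37, 29 and 36 high libraries in generations 21, 22 and 23, and as many low libraries, of 416 libraries in all. The others, called the middle libraries, did not enter the comparison.

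All 416 libraries came from striatum of drug-naïve Diversity Outbred mice (strain J:DO), an outbred stock whose animals each inherit a different mosaic of inbred founder strains. The high and low libraries share stock, tissue and treatment. They differ in no label by design, because the groups were selected on a measured level and are not groups of the study. The labels give sex and generation for each animal, and no age. Of the high libraries 52 were labelled female, and of the low libraries 49 (Fisher's exact test, two-sided p = 0.78).

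Excitatory neurons of the cortex and the other parts of the pallium load glutamate into vesicles mainly with Slc17a7. Neurons of the dorsal and middle thalamus use mainly Slc17a6, and the division is not strict. Nearly all neurons whose cell bodies lie in the striatum are GABAergic, most of them spiny projection neurons of the direct pathway, which carry the D1 dopamine receptor, or of the indirect pathway, which carry the D2 receptor. Cortical axons end in the striatum, but most messenger RNA of a neuron is in its cell body. The striatum borders the corpus callosum and deep cortex above, the claustrum and endopiriform nucleus at its side, the septum and ventricle in the middle, and the thalamus and hippocampus behind. In bulk tissue, more cells of a type and more RNA per cell cannot be told apart.

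Slc17a7 itself ran from 1.87 to 649 CPM over all libraries, with a median of 31.2 CPM. In generation 21 the low libraries had a lowest, median and highest level of 2.19, 4.16 and 5.93 CPM, and the high libraries of 40.6, 110.01 and 467 CPM. In generation 22 these levels were 1.87, 4.69 and 6.66 CPM in the low libraries and 97.5, 158.45 and 649 CPM in the high ones. In generation 23 they were 2.12, 10.7 and 28.1 CPM in the low libraries and 171.64, 224.58 and 460.4 CPM in the high ones. The high median was thus 26.4, 33.8 and 21.1 times the low median, and the range of levels that counted as low was widest in generation 23. The cut fell within a continuous range at both ends. The last low and the next library stood at 5.93 and 6.22 CPM in generation 21, 6.66 and 6.90 CPM in generation 22, and 28.11 and 28.14 CPM in generation 23. The last library below the high libraries and the first within it stood at 40.3 and 40.6, 96.8 and 97.5, and 170.5 and 171.64 CPM. These values chose the libraries and were not tested.

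**Figure D1:**
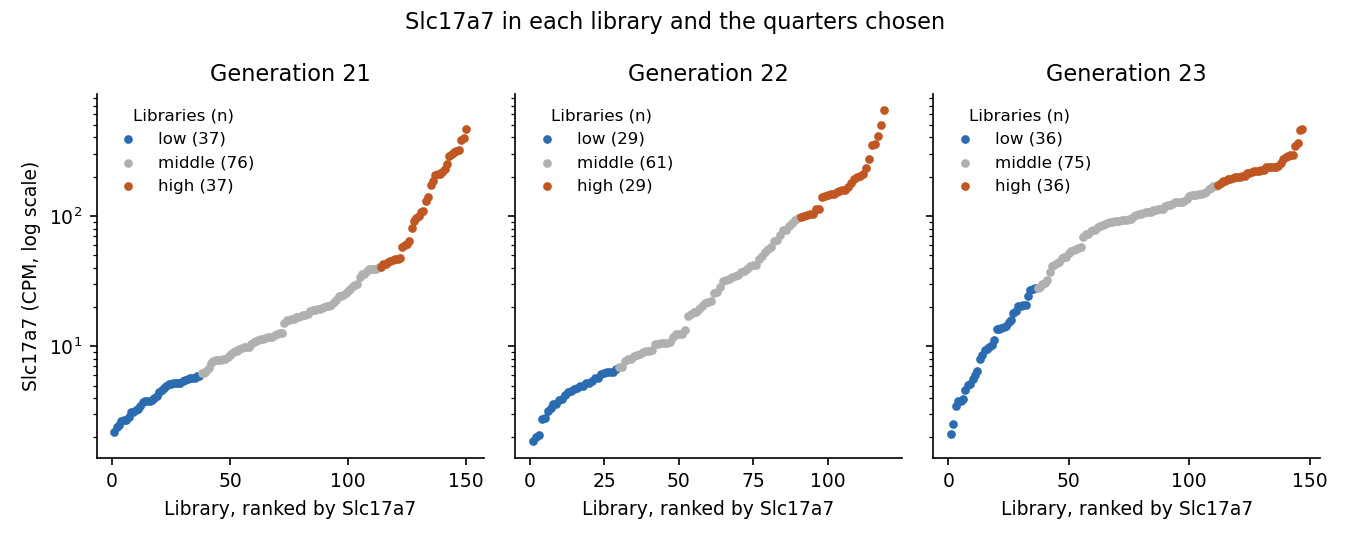
Slc17a7 level (CPM, log scale) of every library against its rank within generation 21, 22 or 23; 1 point is 1 library, blue points are the low libraries (37, 29 and 36), orange points the high libraries and grey points the middle. Levels rise without a gap at either edge, and the low libraries of generation 23 reach 28.1 CPM while those of generation 21 end at 5.93 CPM.

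Total estimated counts ran from 30277724 to 69482881 per library among the high and low libraries, with medians of 44933586 and 43516366 (permutation test within generation, adjusted p = 0.208). Mitochondrially encoded genes took a median of 4.38% of the total in the high and 4.73% in the low libraries (adjusted p = 7.5e-05). The 100 most abundant genes took 26.2% and 27.2% (adjusted p = 5e-05; its raw p of 1e-05 is the smallest these permutations can give). Some libraries stand apart: 21 high and 3 low libraries had a low correlation with the others. A low total, the other ground for this kind, was found in 1 library only, a middle one. High marker sums for thalamus, hippocampus or choroid plexus were found in 22 high and 8 low libraries. In 7 high and 13 low libraries Xist went against the labelled sex (Fisher's exact test, two-sided p = 0.239; adjusted p = 0.298). Leaving out all 3 kinds left 66 high and 81 low libraries. That step also removed the highest Slc17a7 levels, since all 15 high libraries at or above 300 CPM were among those of low correlation. The high median of Slc17a7 was 198.25 CPM in all and 186.35 CPM in the 66. Xist counted as against the label when a library labelled male was above, or one labelled female below, 100 CPM. Values given below as "without the libraries that stand apart" use these libraries.

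With generation as covariate, 6107 of 22950 genes were higher in the high libraries (26.6%) and 6546 were lower (28.5%), at an edgeR quasi-likelihood adjusted p under 0.05. Together these are 55.1% of the genes tested, so a single call says little, and size and consistency are given with each gene. Each p tests whether a gene goes along with Slc17a7 in libraries chosen by Slc17a7. Most differences were small: the median log2 difference was 0.21 among genes called higher and -0.15 among genes called lower, and -0.01 over all genes. Large differences lay on one side. A fold of over 2 was reached by 507 genes called higher and 10 called lower, and a fold of over 1.5 by 1094 and 75. The sign was the same in each generation fitted alone for 5160 of the genes called higher and 6023 of those called lower. In generations 21, 22 and 23 alone 19.6%, 17.1% and 20.4% of genes were higher and 19%, 17.8% and 24% lower. Without the libraries that stand apart 20.4% were higher and 22.1% lower. With column totals in place of edgeR's TMM scaling factors 30.3% were higher and 23.6% lower.

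Genes of pallial excitatory neurons had the largest median difference of the lists used here. All 10 genes of that list were higher, with a median log2 difference of 4.31 against -0.01 over all genes tested. Neurod2 (ENSMUSG00000038255), a transcription factor of cortical excitatory neurons, had a lowest, median and highest level of 0.0459, 0.439 and 2.47 CPM in the low libraries and 0.353, 15.02 and 93.3 CPM in the high ones. Its log2 difference was 4.84 ± 0.15 (SE), 28.6-fold. Tbr1 (ENSMUSG00000035033), a transcription factor of deep-layer neurons, stood at 0.537, 1.64 and 8.95 CPM in the low and at 1.73, 52.9 and 121.04 CPM in the high libraries. All but 2 of the high libraries lay above every low library of their generation for Neurod2 and for Tbr1. Slc30a3, the zinc transporter of glutamate vesicles, was 26.7-fold higher. Sv2b, a synaptic vesicle protein that striatal libraries of both groups hold in quantity, differed least, by 1.37-fold, with medians of 187.87 and 260.09 CPM.

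A strict measure of agreement is that every high library lies above every low library of its generation, in all 3 generations. Only 7 of the genes tested met it in the higher direction and 0 in the lower, beside the 26.6% and 28.5% called by edgeR. They were Bdnf, C1ql3, Cck, Ncald, Nrn1, Olfm1 and Rtn4r; C1ql3 and Olfm1 are named after their values were seen. Bdnf (ENSMUSG00000048482), the neurotrophin that cortical neurons send to the striatum in their axons, had 0.0213, 0.241 and 1.22 CPM (lowest, median, highest) in the low and 0.694, 5.08 and 34.2 CPM in the high libraries. Its log2 difference was 4.23 ± 0.14 (SE). Cck (ENSMUSG00000032532), a neuropeptide of cortical excitatory neurons and of some interneurons, had 0.881, 2.12 and 5.36 CPM against 6.14, 27.2 and 116.36 CPM, with a log2 difference of 3.70 ± 0.11. For Cck the groups do not overlap even when the generations are pooled. Nrn1, a membrane-anchored neurite growth factor, stood at 0.460, 1.24 and 5.28 CPM in the low and 4.32, 27.7 and 128.61 CPM in the high libraries. Rtn4r, the receptor for the growth inhibitor Nogo, was 11.4-fold higher. Ncald, a calcium sensor of neurons, was well expressed in both groups, with 30.7, 37.8 and 51.3 CPM in the low and 51.7, 141.74 and 292.58 CPM in the high libraries. Its 3.64-fold difference is thus far smaller than that of Bdnf. Yet the groups of Ncald, like those of Cck, do not overlap when the generations are pooled, while those of Bdnf do.

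The genes whose level over all 416 libraries was most like that of Slc17a7 came from the same group. By Pearson's r of log2(CPM + 1) over genes with a mean of at least 1 log2 CPM, Cck (0.97), Tbr1 (0.96), Neurod2 (0.96), Nrn1 (0.95), Ncald (0.95), Neurod6 (0.95), Vxn (0.94) and Rtn4r (0.94) were among the closest. The libraries share preparation and depth range, and the groups were cut on the same Slc17a7 values, so these are descriptions. The genes that ran most against Slc17a7 did so less tightly: Tle1 had r of -0.71, Fam110b of -0.69 and Auts2 of -0.68.

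Other genes with large differences, chosen by size or by p over the whole table, also had little RNA in the low libraries. Bmp3, a secreted growth factor of the BMP family, went from a median of 0.580 to 9.55 CPM with a log2 difference of 3.75 ± 0.13 (SE). Rspo2, which strengthens Wnt signals, went from 0.269 to 4.16 CPM, with a log2 difference of 3.70. Serpinb8, a protease inhibitor, went from 0.242 to 4.59 CPM, with a log2 difference of 3.82. In these genes 99 or 100 of the high libraries lay above all low libraries of their generation. Trhde, the enzyme that breaks down thyrotropin-releasing hormone, and Tmem178, a regulator of calcium entry, differed by 2.75 and 2.67 in log2 terms, with high medians of 25.6 and 22.4 CPM. Vxn (3.17), a gene of early neuron formation, had a high median of 119.03 CPM.

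Markers of single cortical layers did not follow Slc17a7 equally. Of all genes tested 26.6% were called higher and 28.5% lower. In layers 2 to 4, 7 of 10 genes were higher and 1 lower, with a median log2 difference of 0.37. In layer 5, 4 of 8 were higher and 2 lower (median 0.14), and in layer 6, 7 of 10 higher and 3 lower (median 0.62). In layer 6b, the deepest layer next to the white matter, 3 of 4 were higher (median 1.56), and in the claustrum and endopiriform list 5 of 7 were higher and 1 lower (median 1.30). Many of these genes are also expressed in the striatum, and the low libraries show it: the lower-called members had low-library medians between 14.9 CPM (Rbp4) and 173.63 CPM (Syt6). The genes described next were picked after their values were seen, several of them with little RNA in the low libraries, where a large fold is easier to reach. They do not stand for their layers, since abundant members of the same lists were lower.

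Cplx3, a complexin of layer 6b neurons, had 0.0878, 0.651 and 3.21 CPM (lowest, median, highest) in the low and 0.382, 6.48 and 26.1 CPM in the high libraries, with a log2 difference of 3.18 ± 0.14 (SE). Ccn2, a matrix protein made by layer 6b neurons, was at 0.746, 2.39 and 7.92 CPM against 1.62, 13.6 and 45.3 CPM (log2 2.45 ± 0.11). Nxph4, a neurexin ligand of the same layer, differed by only 0.67. Rprm, Osr1 and Ntsr1 of layer 6 differed by 2.42, 2.37 and 2.27, while Foxp2 (-0.32), Tle4 (-0.19) and Syt6 (-0.38) of the same list were lower. Osr1 is sparse, and 32 of the low libraries held no count of it.

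Of layer 5, Fezf2, the transcription factor that sets the fate of neurons projecting out of the cortex, was 3.38-fold higher. Its median went from 1.69 to 5.65 CPM, and 92 high libraries lay above all low ones of their generation while 3 lay below all of them. The layer 5 list also holds Pou3f1, a POU-domain transcription factor, which was lower (-0.44, from 41.8 to 32.2 CPM). Of the upper-layer list, Cux2, a transcription factor of layers 2 to 4, was 2.19-fold higher (13.4 to 25.04 CPM), Plcxd2 was 3.41-fold higher and Rorb, the nuclear receptor that marks layer 4, was 1.37-fold higher (60.7 to 75.2 CPM). Without the libraries that stand apart the log2 difference of Cux2 was 0.88 in place of 1.13, and that of Rorb 0.32 in place of 0.45.

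Claustral genes were among the largest. Nr4a2 (ENSMUSG00000026826), a nuclear receptor dense in claustrum and layer 6b, had 0.355, 1.30 and 8.87 CPM in the low and 1.01, 24.97 and 103.45 CPM in the high libraries, with a log2 difference of 4.07 ± 0.15 (SE). Rxfp1, the relaxin receptor, differed by 2.87, Gng2, a G protein subunit, by 1.504 and Ntng2, an axon guidance protein, by 1.30. Gnb4, another G protein subunit of the claustrum, was not called (0.06, adjusted p = 0.291), and Synpr, a synaptic vesicle protein, was lower (-0.18; medians 133.34 and 119.73 CPM). Both the layer 6b sum and the claustral sum rose in most high libraries: 89 lay above all low libraries of their generation for layer 6b and 63 for the claustrum, against 86 for the pallial excitatory list. Each sum follows its most abundant members. In the low libraries Synpr made up most of the claustral sum (median 227.24 CPM), and Sv2b most of the pallial sum (median 197.44 CPM). These counts therefore do not rank the lists by how consistently their genes rose.

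**Figure D2:**
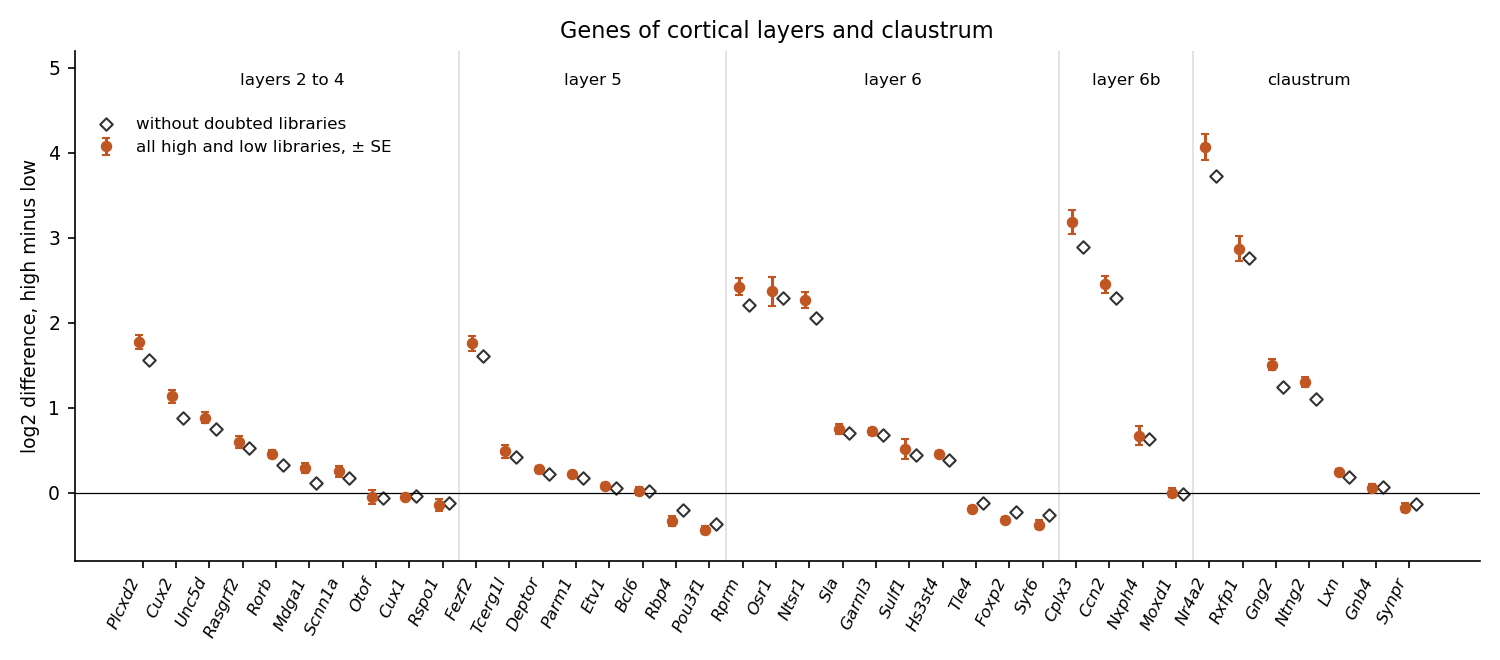
log2 difference (high minus low libraries) of every tested gene of the layer and claustrum lists; filled circles with bars are estimates ± SE from all high against all low libraries, open diamonds the same fit without the libraries that stand apart (66 against 81). Nr4a2, Cplx3, Rxfp1, Ccn2, Rprm, Osr1 and Ntsr1 exceed 2, while other genes of the same lists lie near or below 0.

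Among the high libraries the genes kept different proportions to Slc17a7. Ratios of CPM are not corrected for gene length, so only their spread between libraries is compared. Neurod2 had the steadiest ratio to Slc17a7, with a coefficient of variation (CV) of 25.8% over the high libraries, and the ratios of Tbr1 (27.3%), Bdnf (30.7%) and Cck (31.5%) spread little more. The ratio spread more for Nr4a2 (53.2%), Cplx3 (61.4%), Ccn2 (70.4%), Cux2 (63.5%) and Rorb (63.4%). It spread most for Pvalb (115.5%), Slc17a6 (311.75%) and Prkcd (391.14%), all of them also expressed in thalamic or pallidal cells or in interneurons. The CV of lowly counted genes such as Cplx3 includes counting error. Cux2 and Rorb had low-library medians of 13.4 and 60.7 CPM, so part of their level in the high libraries was present where Slc17a7 was low.

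The median ratio of Tbr1 to Slc17a7 was 25.4%, 28.8% and 28.2% in generations 21, 22 and 23. It fell below 10%, a limit set after the values were seen, in 6 high libraries, 4 of generation 21 and 2 of generation 22, with the next library at 11.5%. All 6 had low correlation with the other libraries and high marker sums for another region. The median ratio of Ccn2 was 9.74%, 8.55% and 6.85%, and that of Nr4a2 11.3%, 14.7% and 14.2%. Whether these medians differ between generations was not tested.

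Markers of thalamus, hippocampus or choroid plexus were high in 22 high and 8 low libraries. Of the thalamus list 7 of 8 genes were higher and 0 lower (median log2 difference 0.75), but the summed level of the list had a median of 75.2 CPM in the high and 66.1 CPM in the low libraries, and a maximum of 3255 against 96.3 CPM. In 30 high libraries it lay above every low library of the same generation. Prkcd (ENSMUSG00000021948), a kinase abundant in thalamic relay neurons, had a high median of 5.61 CPM beside a low median of 4.81 CPM, and a highest level of 1304 CPM. Its log2 difference was 3.81 in generation 21 and 0.27 and 0.25 in generations 22 and 23. In all, 9 high libraries and 0 low ones had a high thalamus sum, 7 of them in generation 21. Without the libraries that stand apart, 4 thalamus genes were higher and 1 lower (median 0.18). Prkcd then had a log2 difference of 0.18 (adjusted p = 0.0641) in place of 1.49 and Tcf7l2, a Wnt effector of thalamic neurons, of -0.02 (adjusted p = 0.664) in place of 0.51.

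Slc17a6 behaved otherwise. The transporter of thalamic glutamate neurons, which some cortical neurons also express, had 0, 0.349 and 3.97 CPM (lowest, median, highest) in the low and 0.367, 4.27 and 280.3 CPM in the high libraries. All high libraries lay above the low median, and 74 lay above all low libraries of their generation. Its log2 difference was 4.11 ± 0.25 (SE) in all libraries and 2.89 without those that stand apart. The remaining vesicular glutamate transporter, Slc17a8, which striatal cholinergic neurons use, was lower (-0.38, from 12.8 to 10.4 CPM).

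The hippocampus list had 4 of 7 genes higher and a median of 0.30, beside 26.6% of all genes tested called higher. Its summed level was alike in both groups except at the top, with medians of 40.9 and 42.8 CPM and maxima of 63.7 and 308.3 CPM. Lct and C1ql2 differed by 2.04 and 0.82, Prox1, the transcription factor of dentate granule cells, by 0.30, and Fibcd1 of field CA1 was not called (-0.07, adjusted p = 0.485). Without the libraries that stand apart the list median was -0.08. Choroid plexus genes were not called by edgeR in either direction (0 of 7, and 0 at an unadjusted p under 0.05; median 0.58), while DESeq2 called 4 and limma voom 0. Transthyretin (Ttr), the main product of the choroid plexus, ranged from 1.1 to 6284 CPM in the low libraries and from 0.65 to 14201 CPM in the high ones, with medians of 7.97 and 8.98 CPM. Its sign differed by generation, with 5.78 in generation 21 and -1.999 in generation 22. The part of these regions in the differences of other genes was not tested, beyond the fits without these libraries.

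Genes of interneurons differed in size and sign, beside 26.6% of all genes tested called higher and 28.5% lower. Of the list for interneurons from the caudal ganglionic eminence (CGE) 6 of 10 genes were higher and 1 lower (median 0.41), and of the list for those from the medial eminence (MGE) 5 of 9 were higher and 3 lower (median 0.26). Vip, the peptide of a cortical class of interneurons, had 0.0273, 0.246 and 1.29 CPM in the low and 0.112, 3.73 and 10.01 CPM in the high libraries, a 12.0-fold difference with 100 high libraries above all low ones of their generation. Crh, a stress peptide that cortical interneurons also make, was 3.69-fold higher at a high median of 0.434 CPM. Pvalb, the calcium buffer of fast-spiking interneurons and of some thalamic and pallidal cells, was 3.02-fold higher (5.41 to 13.8 CPM). Sst (0.36) and Npy (0.26), peptides that striatal interneurons make as well, differed little. Pthlh (-0.36) and Nos1 (-0.17), the latter the nitric oxide synthase of striatal Sst and Npy cells, were lower, and Lhx6, the transcription factor all MGE interneurons share, was not called (-0.03, adjusted p = 0.62).

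**Figure D3:**
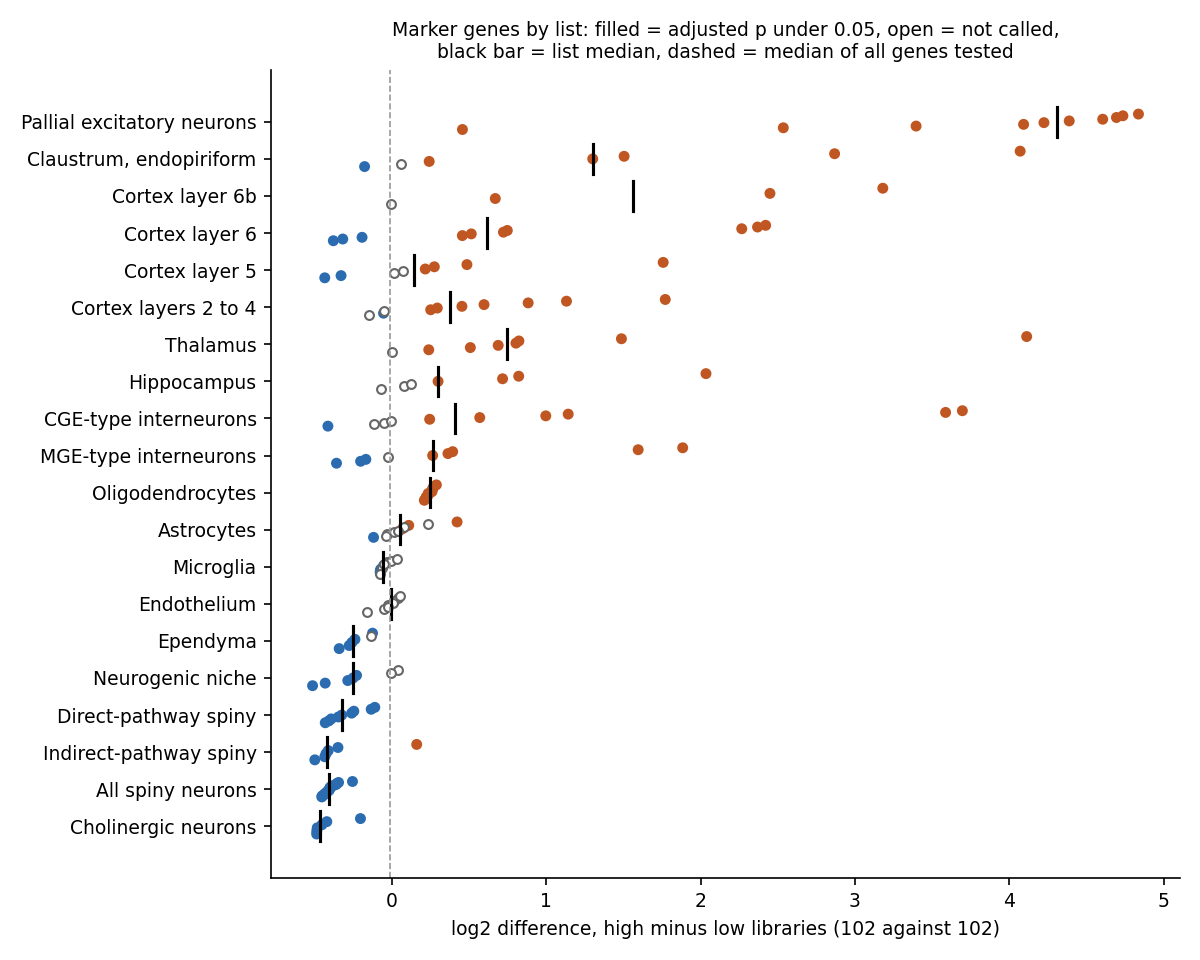
log2 difference (high minus low libraries) of marker genes in 20 lists; 1 point is 1 gene, filled points passed an edgeR adjusted p under 0.05 (orange higher, blue lower), open points did not, black bars are list medians and the dashed line is the median of all genes (-0.01). Pallial excitatory genes reach 4.84, and the spiny and cholinergic lists sit to the left of the line, with medians of -0.33 to -0.47.

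Genes of spiny projection neurons, the main cell of the striatum, were lower in the high libraries by a nearly uniform amount. All 17 genes shared by both spiny classes were called lower, with a median log2 difference of -0.41 and a range of -0.46 to -0.26, while 28.5% of all genes were called lower. Ppp1r1b, which encodes the dopamine-regulated phosphatase inhibitor DARPP-32, had 875, 1095 and 1354 CPM (lowest, median, highest) in the low and 13.45, 844.5 and 1203 CPM in the high libraries. Its log2 difference was -0.41 ± 0.053 (SE). Pde10a, the striatal phosphodiesterase, was lower by the same amount (-0.41), as were Adcy5, the adenylyl cyclase of dopamine signals (-0.41), and Pde1b (-0.40). Gng7, the G protein subunit coupled to dopamine and adenosine receptors, was lower by more (-0.46; 906 to 690 CPM), with 75 high libraries below all low ones of their generation. Rarb, the retinoic acid receptor of developing striatum, stood at -0.45 and Ano3, a calcium-gated membrane protein, at -0.26.

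Both pathways were lower. Of the direct pathway genes 9 of 9 were called lower (median -0.33). Drd1 (ENSMUSG00000021478), the D1 dopamine receptor, had 281.25, 329.13 and 381.29 CPM in the low and 1.47, 252.84 and 335.21 CPM in the high libraries, and 79 high libraries lay below all low ones of their generation. Its log2 difference was -0.43 ± 0.054 (SE). Tac1, the substance P precursor, differed by -0.41 (115.08 to 88.8 CPM), and Pdyn, the dynorphin precursor, by -0.26. Of the indirect pathway genes 5 of 6 were lower and 1 higher (median -0.42). Drd2 (ENSMUSG00000032259), the D2 receptor, had 105.18, 132.21 and 167.75 CPM in the low libraries and ran from 1.47 to 155.05 CPM in the high ones, with a log2 difference of -0.44 ± 0.056. Penk, the enkephalin precursor, differed by -0.43, Adora2a, the adenosine receptor of these cells, by -0.41 and Gpr6, an orphan receptor of these cells, by -0.50. The exception was Grik3, a kainate receptor subunit (0.16), which cortical neurons also express.

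The 17 spiny neuron genes summed to 11025, 12970 and 14543 CPM (lowest, median, highest) in the low libraries and to 1179, 10300 and 13586 CPM in the high ones. In 73 high libraries the sum lay below every low library of the same generation, and in 0 above. The median was 14.8%, 15.98% and 25.95% lower in generations 21, 22 and 23. In bands of Slc17a7 chosen after the values were seen, the median sum over all 416 libraries was 12994 CPM below 10 CPM of Slc17a7 and 12862 CPM from 10 to 30 (89 libraries). It was 12229 CPM from 30 to 100 (93 libraries), 11066 CPM from 100 to 200 (69), 9467 CPM from 200 to 300 (34) and 7317 CPM from 300 to 700 (15). All 15 libraries of the last band are among those that stand apart, by low correlation with the others. The first 2 bands thus differ by less than their spread, and the sum is lower from each band to the next above them. CPM share a fixed total in each library, so the sums are relative amounts.

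A few libraries lay far below the rest. The lowest held 9.09% of the low median for the spiny sum, with Drd1 at 1.47 CPM, Slc17a7 at 320.7 CPM, a thalamus sum of 3255 CPM and Cux2 at 144.85 CPM. Its Tbr1 (1.88 CPM) and Neurod6 (0.275 CPM) were within the range of low libraries. The next, also of generation 21, held 21.6% with a thalamus sum of 1760 CPM and Tbr1 at 3.78 CPM. The third, of generation 22, held 23.4% and had the highest Slc17a7 of all (649 CPM), Neurod6 at 140.73 CPM, Fibcd1 at 63.98 CPM and a hippocampus sum of 308.3 CPM. So in the first and second of these libraries Slc17a7 came without the cortical transcription factors, and in the third with markers of the hippocampus. The fourth, of generation 21, held 42.2% with a thalamus sum of 120.07 CPM and Tbr1 at 35.8 CPM. The fifth, of generation 22, held 43.6% with no other region's markers high and Tbr1 at 121.04 CPM. The sixth, also of generation 22, held 47.7% with a hippocampus sum of 281.89 CPM and Tbr1 at 34.1 CPM. The sum of the pallial excitatory list lay above every low library of the same generation in 86 high libraries and not in the rest. In the low libraries Sv2b, which both groups hold in quantity, made up most of that sum, so it says little about single libraries. Neurod2 and Tbr1 each lay above all low libraries in nearly all high ones, as given above. By these transcription factors the name cortex-rich was not borne out in the first and second libraries of lowest spiny sum. The doubt is not limited to them. Tbr1 lay below 10% of Slc17a7 in 6 high libraries, all with high marker sums for another region. Another high library of generation 21 had a thalamus sum of 2289 CPM, above that of the second library. High Slc17a7 is the rule used here, and the groups are named by it.

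**Figure D4:**
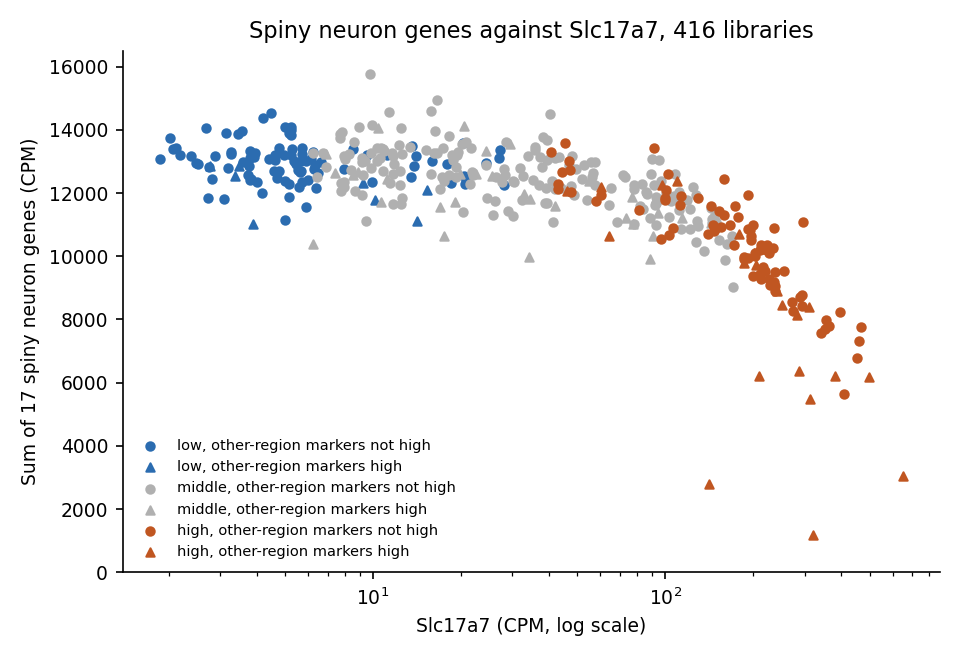
Sum of the 17 spiny neuron genes (CPM) against Slc17a7 (CPM, log scale) in 416 libraries; blue is low, grey middle and orange high, and triangles mark libraries with high thalamus, hippocampus or choroid plexus markers. The median sum is 12994 CPM below 10 CPM of Slc17a7 and 7317 CPM above 300 CPM, and the 3 lowest points, at 1179, 2803 and 3040 CPM, are triangles. All 15 libraries above 300 CPM are among those that stand apart, by low correlation with the others.

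Without the libraries that stand apart the spiny sum had medians of 13002 CPM (81 low libraries) and 10817 CPM (66 high libraries). All 17 genes were still called lower, with a median log2 difference of -0.29, in libraries with a lower Slc17a7 range.

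Cholinergic interneurons, the giant cells that supply the striatum with acetylcholine, went with the spiny neurons. All 6 of their genes were lower (median -0.47). Chat, the enzyme that makes acetylcholine, went from a median of 11.3 to 8.71 CPM (-0.48 ± 0.060, SE), and Slc5a7, the choline transporter, from 31.9 to 24.1 CPM (-0.49). Lhx8, their transcription factor, was at -0.49. Compartments of the striatum differed in size: 4 of 4 genes of matrix or dorsal striatum were lower (median -0.27), for example Id4 (-0.38), while striosome genes had 1 higher and 2 lower of 5 (median -0.03) and ventral striatum genes 1 higher and 2 lower of 6 (median -0.05). Of these, the opioid receptor gene Oprm1 was lower (-0.22) and Cartpt, a peptide gene of the ventral striatum with a high median of 1.14 CPM, was higher (0.65). The difference between compartments was not tested, and 26.6% of all genes tested were called higher and 28.5% lower.

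Transcription factors of pallial and subpallial neurons differed in opposite directions. Of the pallial factors 8 of 11 were higher and 0 lower (median 3.40), among them Emx1 (3.40) and Bhlhe22 (2.54). Emx2, Lhx2 and Pax6, which dividing cells and astrocytes also express, were not called (-0.10, 0.04 and 0.04). Of the subpallial factors 13 of 15 were lower and 0 higher (median -0.35). Meis2, a factor of spiny neurons, went from 424 to 341.02 CPM with 76 high libraries below all low ones, and Six3 (-0.39), Dlx5 (-0.36) and Dlx6 (-0.40) followed. Dlx1, which acts early in the same lineage, was not called (-0.01, adjusted p = 0.936).

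Glutamate, GABA-A, serotonin and muscarinic receptor genes were called in both directions, beside 26.6% of all genes tested called higher and 28.5% lower. Of 17 ionotropic glutamate receptor genes 8 were higher and 7 lower (median 0.01). Grik1 (0.97), Grik4 (0.94) and Grin3a (0.68) were higher by most, and Grik2 (-0.29) and Grid1 (-0.19) were among those lower. Grin1, the subunit that every NMDA receptor needs, was not called (-0.02, adjusted p = 0.272; medians 370.46 and 372.13 CPM). Of the 7 metabotropic receptors 2 were higher and 5 lower. Grm2, an autoreceptor of cortical terminals, went from 0.732 to 4.24 CPM (2.79 ± 0.12, SE), while Grm5, the main type of spiny neurons, went from 623 to 513 CPM (-0.34).

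GABA-A receptor genes had 5 higher and 5 lower of 12 (median -0.02). Gabra3 (0.998) and Gabra5 (0.81), alpha subunits of cortical receptors, were higher, and Gabra3 went from 22.7 to 45.3 CPM with 84 high libraries above all low ones of their generation. Gabrg3 (-0.26), Gabra2 (-0.24) and Gabrd (-0.22) were lower. All 5 genes of GABA synthesis and transport were lower (median -0.21), led by Gad2 (-0.30), one of the 2 enzymes that make GABA, and Slc32a1 (-0.28), which loads it into vesicles. Of the dopamine list 11 of 12 genes were lower (median -0.41), many of them spiny neuron genes named above. Drd3, the dopamine receptor of the ventral striatum, had the largest difference (-0.59, at medians of 0.982 and 0.606 CPM), and Drd5 was not called (0.07, adjusted p = 0.411).

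Of the serotonin receptors 6 were higher and 5 lower of 12. Htr1a, the inhibitory receptor of pyramidal cells, went from 1.478 to 5.63 CPM (1.96 ± 0.10, SE), and Htr7 (0.73) and Htr1f (0.62) were also higher. Htr1b, which spiny neurons send to their terminals, went from 120.9 to 91.9 CPM (-0.44). Of the muscarinic receptors Chrm3 (1.40; 9.10 to 24.9 CPM) and Chrm2 (0.86) were higher and Chrm4, the type of direct pathway neurons, was lower (-0.25). Chrm1, which both cortical and spiny neurons express, was not called (-0.04, adjusted p = 0.508; medians 131.51 and 131.44 CPM). With 26.6% of all genes called higher and 28.5% lower, calls of both signs within a family are not particular to receptors.

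Calcium and calmodulin-dependent kinases had 6 higher and 3 lower of 11, beside 26.6% of all genes tested called higher and 28.5% lower. Camk2g (0.996) and Camk2d (0.80), the less abundant forms of the synaptic kinase CaMKII, were higher, Camk2a was little higher (0.13) and Camk2b lower (-0.21). Neuropeptide genes had 12 higher and 3 lower of 16, with a median of 0.91, and some of them are members of lists above. Adcyap1, the PACAP precursor, went from a median of 0.117 to 1.36 CPM (3.52 ± 0.17, SE). Grp, the bombesin-like peptide of cortical neurons, had 0 counts in 48 of the low and 3 of the high libraries, with a high median of 0.498 CPM. Pnoc, the nociceptin precursor, went from 0.290 to 0.811 CPM (1.70). Levels of these peptides stayed low in the high libraries.

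Ion channel and adhesion genes were called in both directions, beside 26.6% of all genes tested called higher and 28.5% lower. Voltage-gated potassium channels had 15 higher and 11 lower of 30 (median 0.09). Kcnh7 (0.99) and Kcns1 (1.002) were among those higher, and Kcna4 (-0.42; 275.76 to 214.82 CPM) and Kcng3 (-0.40) among those lower. Sodium and calcium channels had 7 higher and 8 lower of 16 (median -0.07), with Cacna1g, the T-type calcium channel of thalamic and cortical neurons, at 2.10 and Scn4b, a sodium channel subunit of spiny neurons, at -0.35. Cadherins had 5 higher and 2 lower of 13, with Cdh18 (0.83) and Cdh12 (0.53) on one side and Cdh8 (-0.40) on the other. Together the cadherin calls are near the 55.1% of all genes called in either direction. Of the genes of perineuronal nets, the matrix around fast-spiking cells, 4 of 8 were higher and 1 lower. Hapln4, a link protein of nets at inhibitory synapses, went from 5.93 to 24.98 CPM (2.24 ± 0.10, SE) and Acan, the main net proteoglycan, from 2.43 to 3.605 CPM (0.40).

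The genes lower with the smallest p values were of modest size but of one direction in most libraries. Tle1, a transcriptional corepressor, went from 80.7 to 66.8 CPM (-0.29 ± 0.019, SE; edgeR adjusted p = 2e-33), with 77 high libraries below all low ones of their generation. Ryr3, a calcium release channel, went from 517 to 407.5 CPM (-0.39) and Cdh8 from 153.03 to 119.97 CPM. The adhesion and signalling genes Pard3 (-0.36), Necab2 (-0.39) and Doc2b (-0.38) and the GABA transaminase gene Abat (-0.21) were of the same kind. Well expressed genes with some of the largest differences were Serpina9 (-0.50), Pbx3 (-0.49), Dach1 (-0.48), Calb1 (-0.47) and Cntn5 (-0.47), beside Gpr6 (-0.50), named above. Calb1 encodes a calcium buffer of matrix spiny neurons, and Pbx3 and Dach1 are transcription factors. Among genes at lower levels with 1 sign in each generation Clec12a (-0.66), Dsg1c (-0.65), Papln (-0.65) and Fgf3 (-0.61) had the largest differences. None of these reached a fold of 2.

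All 10 oligodendrocyte genes were higher with a narrow range of log2 differences, 0.21 to 0.29 (median 0.25). Mbp (ENSMUSG00000041607), a main protein of myelin, had 948, 1531 and 2379 CPM (lowest, median, highest) in the low and 841, 1823 and 4443 CPM in the high libraries, so the groups overlap widely. The number of these genes called was 10, 9 and 1 in generations 21, 22 and 23 fitted alone, with medians of 0.41, 0.25 and 0.07. Without the libraries that stand apart all 10 were higher (median 0.24). Of 10 astrocyte genes 3 were higher and 1 lower (median 0.05), near or below the 26.6% and 28.5% of all genes tested. The largest difference was that of Gfap, the filament of reactive astrocytes (0.42), which had 0.73 and 0.54 in generations 21 and 22 and -0.01 in generation 23. With the libraries that stand apart left out, 1 astrocyte gene was higher and 3 lower.

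Microglia genes had 0 higher and 4 lower of 10 (median -0.06), and 1 lower with column totals in place of TMM factors. Of all genes tested 26.6% were called higher and 28.5% lower. Endothelial genes were not called by edgeR, with 0 of 8 in either direction (1 at an unadjusted p under 0.05, and 1 called by DESeq2 and by limma voom; range -0.16 to 0.05). Lists of the ventricle wall were lower. Of ependymal genes 5 of 6 were lower (median -0.25), and 3 of 6 without the libraries that stand apart. Of the genes of the neurogenic niche, the dividing cells beside the ventricle and their progeny, 5 of 7 were lower (median -0.25), and the same number without those libraries. Top2a and Mki67, genes of dividing cells, were at -0.51 and -0.43, with Top2a going from 10.1 to 6.97 CPM, while Dcx of young neurons was not called (0.04, adjusted p = 0.506).

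Immediate early genes, which respond to recent activity, had 2 higher and 8 lower of 15 (median -0.22). Of all genes tested 26.6% were called higher and 28.5% lower. The 2 higher genes were Bdnf and Ier2 (0.65; 1.38 to 2.15 CPM). Egr2 (-0.54), Npas4 (-0.43) and Egr4 (-0.39) were lower, and Fos and Arc were not called (-0.10 and 0.12). Of the 12 clock genes 9 were lower (median -0.14), with Dbp, an output gene of the clock, at -0.26 and Per2 at -0.24. The labels give a sampling window in the morning and no time per animal.

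Genes of general cell functions moved by small amounts, beside 26.6% of all genes tested called higher and 28.5% lower. Replication-dependent histones, a family of near-identical copies whose counts are uncertain one by one, had 47 of 61 lower and 2 higher (median -0.22), and 33 lower without the libraries that stand apart. Nuclear genes of oxidative phosphorylation had 40 of 89 higher and 4 lower (median 0.04), and 27 higher without those libraries. Mitochondrially encoded genes had 9 of 13 lower (median -0.12), 3 without them. Cytosolic ribosomal protein genes had 29 of 76 lower and 2 higher (median -0.04), and 17 lower with column totals. Housekeeping genes had 7 of 10 higher and 3 lower, within -0.11 to 0.16. The heat shock list had 5 of 10 higher (median 0.05), 1 without the libraries that stand apart. A list whose members are all near 0 can thus hold many calls at this number of libraries.

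The middle libraries, which did not enter the comparison, gave the same measure in other animals. There the slope of each gene on log2 Slc17a7 was tested, with generation as covariate. At an adjusted p under 0.05, 1343 of 22088 genes (6.08%) rose with Slc17a7 and 651 (2.95%) fell. Of the genes called higher between high and low libraries 1320 of 5902 were called in the same direction (22.4%) and 0 in the other. Of those called lower 612 of 6481 were called in the same direction (9.44%) and 2 in the other. The sign of the slope was the same for 84.8% of the genes called higher and 82.5% of those called lower. Such a share was not taken over genes without a call, so these shares have no baseline. The slope is on Slc17a7, the gene that cut the groups, so it describes going along with Slc17a7 and is no independent support. The middle range is narrower, from 6.22 to 170.5 CPM of Slc17a7 over the 3 generations.

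By member, the middle libraries gave Tbr1 and Neurod2 a slope of 0.99 log2 units for each log2 unit of Slc17a7, Cck one of 0.74, Nr4a2 of 0.82, Ccn2 of 0.53 and Cux2 of 0.16. All 10 pallial excitatory genes were called higher there, and of the layer 6b list Cplx3 and Ccn2 were called but not Nxph4 (slope 0.16, edgeR adjusted p = 0.124). Of the 17 spiny neuron genes 15 were called lower in the middle libraries, with a median slope of -0.05. Drd1 had a slope of -0.07 (edgeR adjusted p = 9.65e-10). The oligodendrocyte list had 0 of 10 called there by edgeR, as had the neurogenic niche (0 of 7), histone (0 of 60) and clock (0 of 12) lists. At an unadjusted p under 0.05 these lists had 0, 0, 3 and 1, and limma voom called 0 in each. For those lists the difference between high and low libraries was thus not found at this depth and range in the libraries between them.

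The difference between high and low libraries varied with generation for 1310 genes (5.71%) by a test of the interaction. The gap in Slc17a7 also differed between generations, as given above. Prkcd had the smallest p among the genes named. Genes of cortical neurons varied by less than their size: Neurod6 differed by 4.66, 5.71 and 4.02 in generations 21, 22 and 23 (interaction adjusted p = 0.00239) and Plcxd2 by 1.33, 1.75 and 2.22 (adjusted p = 0.00235). For Tbr1 (4.57, 5.15 and 4.22) the interaction p was 0.0849. Drd1 (-0.44, -0.39 and -0.48; adjusted p = 0.94) and Pde10a (-0.40, -0.37 and -0.48; adjusted p = 0.864) gave no call.

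**Figure D5:**
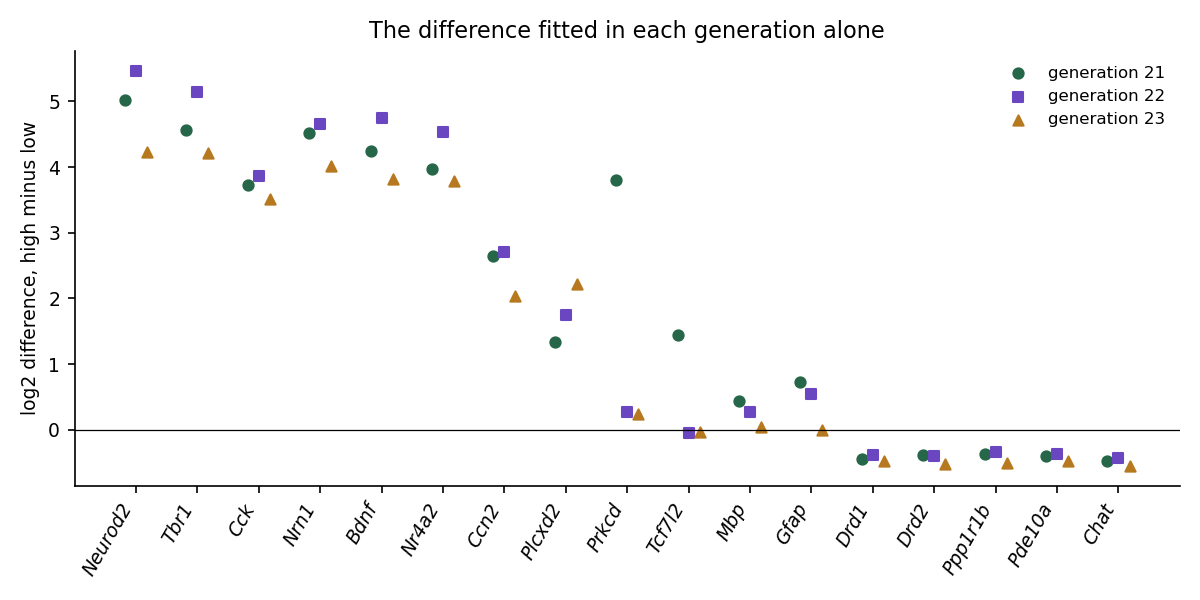
log2 difference (high minus low) of 17 genes fitted in each generation alone; circles are generation 21, squares 22 and triangles 23, with 37, 29 and 36 libraries at each end. The 7 genes from Neurod2 to Ccn2 lie above 2 in each generation, spiny and cholinergic genes between -0.55 and -0.35, and Prkcd and Tcf7l2 are high in generation 21 alone (3.81 and 1.45).

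Choosing the libraries by Neurod6 in place of Slc17a7 kept 93 of the high and 82 of the low libraries, and gave 4791 genes higher and 5610 lower. Of the genes called higher by Slc17a7, 4548 were called higher by both choices and 27 were called lower by Neurod6. Prkcd was among the genes whose sign turned (-0.80 by Neurod6, 1.49 by Slc17a7), as were Tcf7l2 (-0.45 and 0.51) and Ntng1 (-0.17 and 0.80), a thalamic guidance molecule. The pallial excitatory genes other than Neurod6, which chose these libraries, and the spiny neuron genes named here kept their sign.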

How the data were processed

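Total RNA of striatum was sequenced as ribosome-depleted, stranded paired-end libraries, per the labels' protocols. The authors deposited a table of estimated counts per Ensembl gene ID, of which 23.8% of values were not whole; the counter, aligner and genome build are not given in the sources used here. Counts were rounded, which moved 0.005% of the total. Names and chromosomes came from GENCODE M21 by gene ID, for 46005 of 46517 IDs. Each sample is one animal per its title. The rule for the libraries, the lists and the tests were chosen with earlier results of these data known.

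High and low libraries were cut by rank of Slc17a7 CPM within generation. Genes passing filterByExpr (minimum count 10) were fitted with edgeR 4.0.16 (TMM factors, quasi-likelihood test, generation as covariate, R 4.3.3), with Benjamini-Hochberg adjustment over all 22950 genes. Levels are CPM and differences are edgeR log2 fold changes, so the 2 can differ slightly. Genes were named by list, by the largest differences and smallest p with a mean of at least 1 log2 CPM and one sign in each generation, and by the smallest interaction p; other list members were named after their values were seen. On simulated data of 6000 genes, 78% of 1.2-fold and 95.9% of 1.5-fold changes were recovered, with 5 false calls among 5763 unchanged genes. Those data held few changed genes, as many up as down, and no libraries that stand apart. In the real comparison 55.1% of genes were called, so these rates may not carry over. Alternatives included DESeq2 1.42.0, limma voom 3.58.1, other scaling, filters, cuts and left-out libraries. Gene lists share members, and library totals set the counting precision of low genes. Results of a few genes are not reported here.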

Additional observations from a re-analysis of the deposited data

Results flagged for a closer look

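The test of whether the difference between high and low libraries varied with generation called 1310 genes by edgeR. The groups were chosen by Slc17a7 within each generation, and the gap in Slc17a7 was not the same in each. Among the genes named, the thalamic genes Prkcd (adjusted p = 1.8e-10), Plekhg1 (3.62e-06), Tcf7l2 (5.7e-06), Ntng1 (5.56e-05) and Rgs16 (0.00188) differed most in generation 21. The choroid plexus genes Sostdc1 (6.95e-07), Aqp1 (2.15e-06), Slc4a5 (3.4e-06), Mfrp (3.49e-06), Cldn2 (4.63e-06) and Ttr (7.45e-06) also varied, and Slc4a5, Mfrp and Ttr had log2 differences of 4.92, 3.28 and 5.78 in generation 21 and -1.81, -1.30 and -1.999 in generation 22. The hippocampus genes Lct (0.00388), Dsp (0.0134), C1ql2 (0.0248) and Prox1 (0.0351) also varied, as did Zic1 (6.54e-06), Eps8l2 (3.03e-06), Akap2 (5.04e-06), Cwc22 (0.00197) and Cox7a1 (0.0208).

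Of cortical genes the test called Sv2b (9.37e-05), Plcxd2 (0.00235), Neurod6 (0.00239), Trhde (0.0108), Neurod2 (0.023), Cplx3 (0.023) and Vxn (0.0392), and of transcription factors Pax6 (0.0181). Of receptors, kinases and channels it called Htr1a (0.00786), Camk2g (0.00811), Kcnh7 (0.00936), Grik4 (0.0128), Camk2d (0.0193), Htr7 (0.0211), Kcns1 (0.0246), Htr1f (0.0253), Gabra3 (0.0309) and Gabra5 (0.0373). Of glial genes it called Gfap (0.0113), Mbp (0.0161), Mag (0.026), Aldh1l1 (0.0277), Neu4 (0.0436) and Csf1r (0.0477). All p-values in both paragraphs are Benjamini-Hochberg adjusted interaction p-values of edgeR.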

How the results depend on the processing

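The numbers of genes called stayed within 1.5 times of 6107 higher and 6546 lower (26.6% and 28.5% of genes tested) under the alternatives run, although with no filter on low counts the 7121 higher and 7042 lower were 18.5% and 18.3% of 38464 tested. The exceptions were that a test against a fold of 1.2 gave 7.18% and 1.8%, generation 22 alone gave 17.1% and 17.8%, and generation 21 alone gave 19% lower. Genes whose difference varied with generation numbered 612 by limma voom. Column totals turned the share of calls that were higher from 48.3% to 56.2%. The sign turned under single alternatives for some named genes, and the cause was not tested. With libraries chosen by Neurod6 the log2 difference was -0.45 for Akap2, -0.011 for Aldoc, -0.19 for Eps8l2, -0.17 for Ntng1, -0.31 for Plekhg1, -0.80 for Prkcd, -0.17 for Rgs16, -0.45 for Tcf7l2 and -0.53 for Zic1. In generation 23 alone it was -0.012 for Aldh1l1, -0.0010 for Aldoc, -0.54 for Dsp, -0.13 for Eps8l2, -0.0089 for Gfap, -0.073 for Neu4, -0.013 for Prox1, -0.032 for Tcf7l2 and -0.26 for Zic1. In generation 22 alone it was -0.15 for Eps8l2, -1.30 for Mfrp, 0.012 for P2ry12, -0.047 for Tcf7l2 and -0.22 for Zic1, and in generation 21 alone 0.024 for Csf1r and 0.097 for Dnah11. Without libraries of low total or correlation it was -0.12 for Dsp and -0.077 for Zic1. Without those of high hippocampus, thalamus or choroid plexus markers it was -0.35 for Dsp, -0.028 for Tcf7l2 and -0.14 for Zic1. Without all libraries that stand apart, chosen after seeing the data, it was -0.27 for Dsp, -0.021 for Tcf7l2 and -0.086 for Zic1. By limma voom it was -0.0027 for Dsp and -0.038 for Zic1, with total count and mitochondrial share as covariates -0.0096 for Zic1, and among libraries labelled female -0.21 for Dsp. No paired analysis was possible because the labels give no numbers that pair high with low libraries. Depth limits genes under about 1 CPM, for which single libraries hold few counts.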
